A study of Ictidomys tridecemlineatus with 10 samples.

Results

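The genes that start sphingolipid synthesis were followed in the subfornical organ of the thirteen-lined ground squirrel, a rodent that hibernates. The group holds 10 genes chosen by symbol, of 25964 names in the deposited table, and all 10 were measured well enough to be tested among 15445 genes. It was chosen with results of the comparison below already known, so the differences of its genes are given as a description.

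This organ sits on the brain's midline, outside the blood-brain barrier, and its neurons read the state of the blood and drive thirst. There were 5 biological replicates from Active animals, which were not hibernating, and 5 from animals in interbout arousal (IBA), the short return to a warm body between bouts of torpor. The organ was cut by hand from brain slices, so each library may hold some neighbouring tissue, and the sources used here do not give the animals' age or sex. Messenger RNA was sequenced, and the values are normalised CPM. These are read counts scaled within each library, not by depth alone, since the sums of the libraries differ. They could be turned back into whole reads, of which Active libraries held 20993093 to 30713168 and IBA libraries 24195342 to 35382203.

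Sphingolipid synthesis starts on the endoplasmic reticulum, where serine palmitoyltransferase (SPT) joins serine to palmitoyl-CoA. SPT is built around a pair of large subunits, SPTLC1 and a partner such as SPTLC2, with a small activating subunit, and the ORMDL proteins restrain it when ceramide is plentiful. The product is reduced by KDSR, given a second fatty acid by a ceramide synthase (CERS), and turned into ceramide by the desaturase DEGS1. Brain uses ceramide for sphingomyelin, for the gangliosides of neurons and for the galactolipids of myelin.

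Of the 10 genes, 1 passed the threshold, Sptlc1, which was higher in IBA. The threshold was an adjusted p under 0.05 over all genes tested in limma, and 0.401% of all genes tested passed it in either direction and 0.22% passed it upwards. The values of the states did not overlap for 2 of the 10, Sptlc1 and Cers6, and 6.38% of all genes tested had no overlap. Since the genes were chosen with this comparison known, nothing is read from these shares. By the sign of the log2 difference, 5 genes were higher in IBA and 5 were lower. The median log2 difference was -0.03, beside 0.03 over all genes tested. Every difference is IBA minus Active on the log2(CPM + 0.5) scale, with a 95% interval that is not adjusted for the number of genes.

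**Figure D1:**
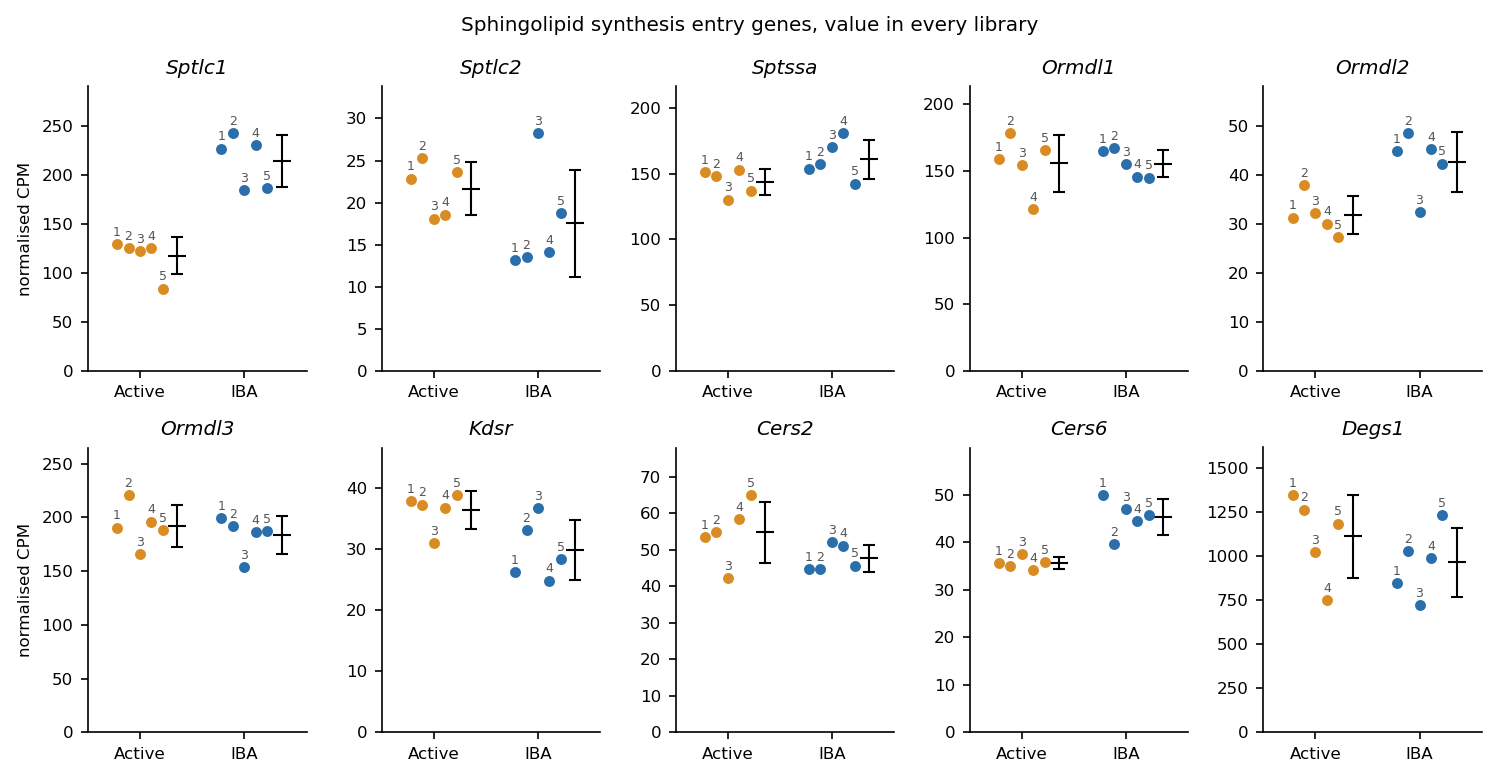
Normalised CPM of the 10 genes in each library (dots, numbered by replicate) of the Active (orange) and IBA (blue) states, with the mean and SD of 5 libraries in black; each vertical axis starts at 0 and has its own range. Sptlc1 and Cers6 show no overlap between the states, and IBA replicate 3 stands above the other IBA libraries for Sptlc2 and below them for Ormdl2 and Ormdl3.

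Sptlc1 encodes the large SPT subunit that every form of the enzyme contains. Its values were 129.5, 125.3, 122.5, 125.4 and 83.8 CPM in Active replicates 1 to 5 and 226.9, 242.2, 184.1, 230.6 and 186.6 CPM in IBA replicates 1 to 5. The lowest IBA library lay well above the highest Active library, and Active replicate 5 lay apart from the other Active libraries, which were close together. The mean was 117.3 ± 18.9 CPM in the Active and 214.1 ± 26.8 CPM in the IBA libraries (SD, n = 5 each), a log2 difference of 0.87 (SE 0.13, 95% interval 0.58 to 1.17) or 1.83-fold. Its adjusted p in limma was 0.0347, and it ranked 10 among the 15445 genes by p. In the authors' deposited table it ranked 2 of 25964 by p, with an FDR of 0.0184. The call rested on single libraries: the adjusted p in limma was 0.0590 without Active replicate 1 and 0.0892, 0.0904 and 0.0696 without IBA replicates 1, 2 and 4. It was 0.0788 without Active replicates 4 and 5 together and 0.0589 with no filter on low values. The log2 difference moved less, from 0.76 to 0.93 over all 23 alternative settings.

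In bulk tissue, more cells of a type and more RNA per cell cannot be told apart. Microglia and macrophage markers had a summed level of 198.9 to 251.5 CPM in Active and 278.9 to 323.4 CPM in IBA, with no overlap. Their score, the mean log2 deviation of the markers, which weighs each gene equally, did overlap, at -0.30 to 0.04 in Active and -0.07 to 0.22 in IBA. Of their 8 members tested, 6 were higher and 2 lower, and none of the 9 in the table was at 0 in every library. The microglial genes P2ry12 and Tyrobp rose, by 0.89 and 0.78, and Lyve1, known from lymphatic endothelium and border macrophages, fell by 1.28 on the log2 scale. Their part in the Sptlc1 difference was not tested.

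Sptlc2 encodes the usual catalytic partner of SPTLC1. Its values were 22.8, 25.3, 18.1, 18.6 and 23.6 CPM in Active replicates 1 to 5 and 13.2, 13.5, 28.2, 14.1 and 18.7 CPM in IBA replicates 1 to 5. IBA replicates 1, 2 and 4 lay below every Active library, whereas IBA replicate 3 lay above them all. The mean was 21.7 ± 3.18 CPM in the Active and 17.6 ± 6.37 CPM in the IBA libraries, which gave a log2 difference of -0.35 (SE 0.20, 95% interval -0.78 to 0.09) that did not pass the test. Without IBA replicate 3 the difference was -0.53, which did not pass either. The residual SD of Sptlc2 on the log2 scale was 0.35, larger than that of 73.2% of genes tested.

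Sptssa encodes the small subunit that activates the SPT pair. It held 151.3, 148.2, 130.3, 153.0 and 137.1 CPM in the Active libraries and 153.8, 157.5, 169.9, 180.6 and 142.5 CPM in the IBA libraries. The states overlapped, with IBA replicate 5 below 3 of the Active libraries. The log2 difference was 0.16 (95% interval -0.04 to 0.36) and did not pass the test.

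The ratio of both large subunits was taken within each library, after 0.5 CPM was added to each value. It is therefore not wholly free of how libraries are scaled. The ratio of Sptlc1 to Sptlc2 was 5.57, 4.88, 6.61, 6.61 and 3.50 in Active replicates 1 to 5 and 16.6, 17.3, 6.43, 15.8 and 9.73 in IBA replicates 1 to 5. The values are not corrected for transcript length, so only the change of the ratio between libraries can be read. In 4 IBA libraries it lay above every Active library, and in IBA replicate 3 it lay inside the Active range. The mean log2 ratio was 2.40 ± 0.38 in Active and 3.62 ± 0.62 in IBA (SD, n = 5 each), a difference of 1.22, or 2.33-fold. Leaving out each library in turn gave differences of 1.07 to 1.45. Sptlc1, with its known difference, is the numerator, and Sptlc2 did not pass the test, so this ratio too is a description and no separate result.

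**Figure D2:**
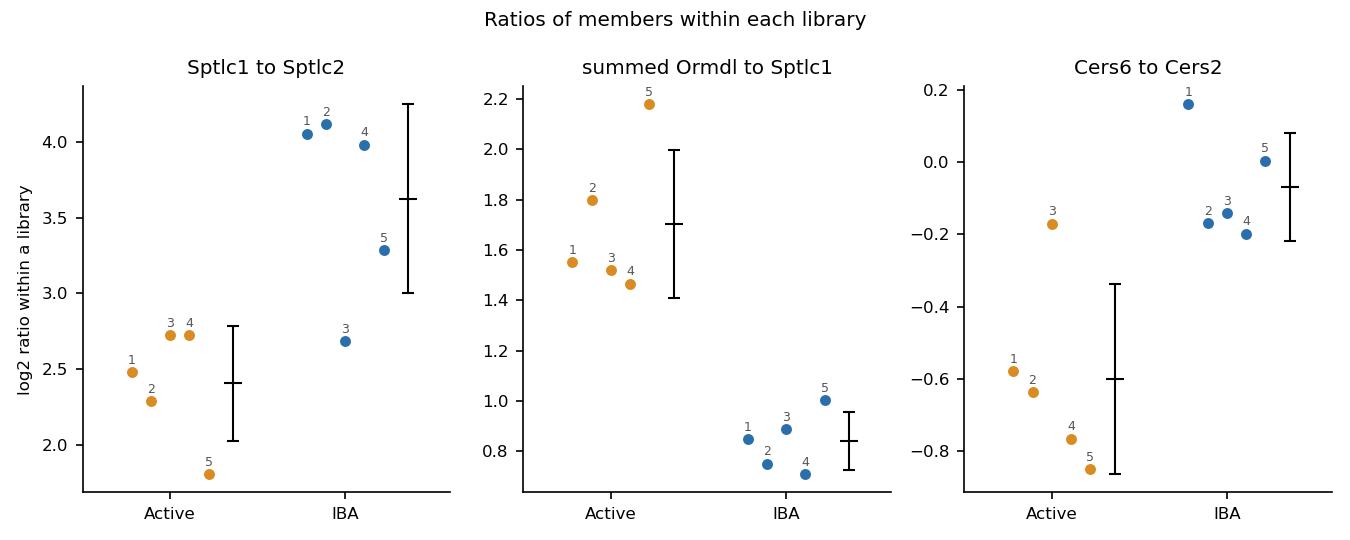
Log2 ratios within each library for Sptlc1 to Sptlc2, the summed Ormdl genes to Sptlc1, and Cers6 to Cers2 (dots, numbered by replicate), with the mean and SD of 5 libraries in black. Each ratio was taken after 0.5 CPM was added to both terms, and the vertical axes do not start at 0. The Ormdl to Sptlc1 ratio of each IBA library is below that of each Active library, while the other ratios overlap through IBA replicate 3 and Active replicate 3.

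The ORMDL genes encode small membrane proteins that bind SPT and hold it back. Ormdl1 held 159.1, 178.2, 154.3, 121.4 and 165.5 CPM in the Active libraries and 164.8, 167.3, 155.2, 145.8 and 144.9 CPM in the IBA libraries. The IBA values lay inside the Active range. Its log2 difference was 0.01 (95% interval -0.23 to 0.24) and had the other sign in 9 of 23 alternative settings, scaling to equal totals and median-of-ratios scaling among them.

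Ormdl3 held 190.2, 220.8, 165.7, 195.9 and 188.3 CPM in the Active libraries and 199.3, 192.0, 153.4, 186.3 and 186.9 CPM in the IBA libraries. The states overlapped almost wholly, and IBA replicate 3 was the lowest of the 10. Its log2 difference was -0.07 (95% interval -0.29 to 0.16), and it ran from -0.12 without Active replicate 3 to -0.0021 without IBA replicate 3. Neither Ormdl1 nor Ormdl3 passed the test.

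Ormdl2 differed more than its relatives in size. It held 31.3, 37.9, 32.2, 30.1 and 27.4 CPM in the Active libraries and 44.9, 48.5, 32.4, 45.3 and 42.3 CPM in the IBA libraries. In 4 IBA libraries it lay above every Active library, and IBA replicate 3 lay within the Active range. The mean was 31.8 ± 3.89 CPM in the Active and 42.7 ± 6.15 CPM in the IBA libraries, which gave a log2 difference of 0.42 (SE 0.13, 95% interval 0.14 to 0.69) that did not pass the test over all genes. It passed in 1 of 23 alternative settings, DESeq2 on the recovered reads, which called 9.89% of all genes. The difference between Ormdl2 and the other Ormdl genes was not tested.

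The 3 Ormdl genes, summed, were set over Sptlc1 within each library, with 0.5 CPM added to the sum and to Sptlc1. In Active replicates 1 to 5 this ratio was 2.93, 3.48, 2.87, 2.76 and 4.53. In IBA replicates 1 to 5 it was 1.80, 1.68, 1.85, 1.64 and 2.00. All IBA libraries lay below all Active libraries, IBA replicate 3 included. The mean log2 ratio was 1.70 ± 0.29 in Active and 0.84 ± 0.12 in IBA. The difference was -0.86, and it was -0.74 without Active replicate 5. Sptlc1, which was chosen for its difference, is the denominator, so the direction of this ratio is fixed in part by that choice.

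Kdsr encodes the reductase that turns the SPT product into sphinganine. It held 37.9, 37.3, 31.0, 36.8 and 38.9 CPM in the Active libraries and 26.2, 33.1, 36.7, 24.9 and 28.4 CPM in the IBA libraries. IBA replicates 1, 4 and 5 lay below every Active library, and IBA replicate 3 lay among them. The mean was 36.4 ± 3.11 CPM in the Active and 29.9 ± 4.94 CPM in the IBA libraries, which gave a log2 difference of -0.29 (SE 0.12, 95% interval -0.56 to -0.02) that did not pass the test over all genes or in any of 23 alternative settings.

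Ceramide synthases differ in the length of the fatty acid they attach. CERS2 prefers very long chains and is prominent in oligodendrocytes, whereas CERS6 prefers palmitoyl chains. Cers6 held 35.6, 35.1, 37.5, 34.1 and 35.8 CPM in the Active libraries and 50.0, 39.6, 47.1, 44.5 and 45.8 CPM in the IBA libraries. All IBA libraries lay above all Active libraries, whose values were close together. The mean was 35.6 ± 1.24 CPM in the Active and 45.4 ± 3.82 CPM in the IBA libraries, which gave a log2 difference of 0.34 (SE 0.09, 95% interval 0.14 to 0.54), or 1.27-fold. It did not pass the test over all genes, and it passed in 1 of 23 alternative settings, DESeq2 on the recovered reads. Only 1.44% of genes tested had a smaller residual SD.

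Cers2 held 53.5, 54.8, 42.3, 58.3 and 65.0 CPM in the Active libraries and 44.7, 44.6, 52.0, 51.1 and 45.6 CPM in the IBA libraries. All IBA libraries lay inside the Active range. The log2 difference was -0.19 (95% interval -0.44 to 0.06), which did not pass the test. It depended on the Active libraries: it was -0.28 without Active replicate 3, the lowest of the 10, -0.13 without Active replicate 5, the highest, and -0.07 without Active replicates 4 and 5. With the score of oligodendrocyte markers as a covariate it was also -0.19, and the part of oligodendrocytes in it was not tested.

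Within a library, the ratio of Cers6 to Cers2 was 0.670, 0.643, 0.889, 0.588 and 0.555 in Active replicates 1 to 5 and 1.12, 0.889, 0.906, 0.872 and 1.00 in IBA replicates 1 to 5. Active replicate 3 was as high as the lower IBA libraries, and the other Active libraries lay below every IBA library. Here too 0.5 CPM was added to each value before the ratio was taken. The mean log2 ratio was -0.60 ± 0.26 in Active and -0.07 ± 0.15 in IBA. The difference of 0.53 ranged from 0.47 to 0.64 when each library was left out. Both genes were chosen with their differences known and neither passed the test, so this ratio too is a description and no separate result.

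Degs1 encodes the desaturase that makes ceramide from dihydroceramide. It held 1347, 1263, 1022, 752 and 1185 CPM in the Active libraries and 848, 1029.8, 722, 989 and 1234 CPM in the IBA libraries. The states overlapped widely, and Active replicate 4 and IBA replicate 3 were the lowest of their states. The mean was 1114 ± 235 CPM in the Active and 965 ± 194 CPM in the IBA libraries, which gave a log2 difference of -0.20 (SE 0.18, 95% interval -0.60 to 0.19) that did not pass the test. With the oligodendrocyte score as a covariate it was -0.22, and it was -0.10 without IBA replicate 3 and -0.34 without Active replicate 4.

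**Figure D3:**
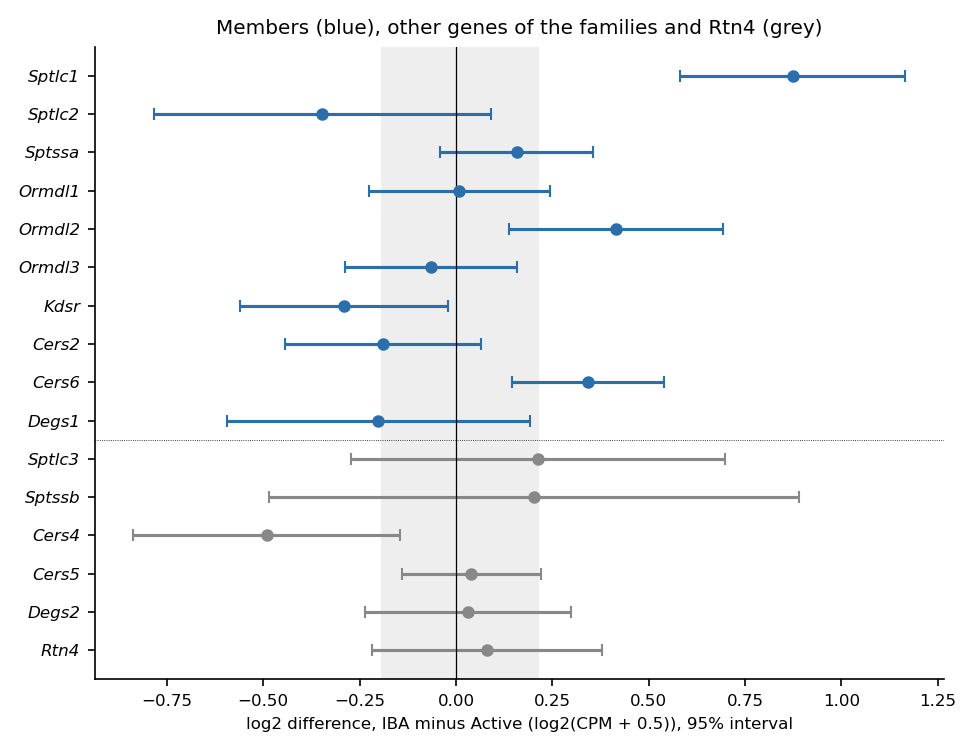
Log2 difference (IBA minus Active) with its unadjusted 95% interval for the 10 genes (blue) and, below the dotted line, for the other tested genes of the same families and Rtn4 (grey); the shaded band spans the quartiles of all 15445 genes tested, -0.19 and 0.21. Sptlc1 lies at 0.87, far to the right of the others, whose values run from -0.49 to 0.42.

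Libraries did not move as a block across the 10 genes. IBA replicate 3 was the highest IBA library for Sptlc2, Kdsr and Cers2 and the lowest for Sptlc1, Ormdl2, Ormdl3 and Degs1. It lay inside the Active range for Ormdl2, Kdsr and Cers2, above that range for Sptlc2 and Sptlc1, and below it for Ormdl3 and Degs1. Choroid plexus markers were also highest among IBA libraries there, with a summed level of 3019 CPM against 481 to 2174 CPM in the other IBA libraries, and their part was not tested. Active replicate 3 was the lowest Active library for Sptlc2, Sptssa, Ormdl3, Kdsr and Cers2, and Active replicate 2 was the highest for Sptlc2 and all 3 Ormdl genes.

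Other facts of the libraries bear on these values. Genes known for the organ were present in every library, with Agtr1, the angiotensin receptor gene, at 13.6 to 60.7 CPM across Active libraries and 34.0 to 69.5 CPM across IBA libraries, and Scn7a, a sodium channel gene, at 422 CPM or more. Active replicate 4 held a summed choroid plexus marker level of 13473 CPM against 566 to 2133 CPM in the other Active libraries. Oligodendrocyte marker scores were between -1.28 and 0.61 in the Active libraries and between -1.44 and 1.08 in the IBA libraries. Of the 9 marker lists, the microglia list alone held called genes, and the list medians ran from -0.34 for fibroblasts to 0.42 for microglia.

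Relatives of the 10 genes that were not chosen with them did not pass the test. Sptlc3, the alternative catalytic SPT subunit, was at 17.4 ± 4.32 CPM in the Active and 20.8 ± 7.77 CPM in the IBA libraries, and Sptssb, the alternative small subunit, at 4.33 ± 1.59 and 5.36 ± 2.62 CPM (SD, n = 5 each). Their log2 differences were 0.21 (95% interval -0.27 to 0.70) and 0.20 (-0.49 to 0.89). With IBA replicate 2 omitted they were 0.020 and 0.027, and with IBA replicate 1 omitted Sptssb was at 0.046. Over all omissions of 1 library Sptlc3 reached 0.31 and Sptssb 0.42. Rtn4, whose product Nogo-B inhibits SPT in mouse endothelium, was at 462 ± 87.1 and 483 ± 44.6 CPM, a log2 difference of 0.08. Its sign turned when Active replicate 5 was left out, to -0.04, and when Active replicate 4 was left out as well, to -0.06. Degs2, a desaturase that also hydroxylates, was at 7.42 ± 0.560 and 7.59 ± 0.613 CPM.

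The remaining ceramide synthases are Cers1, Cers3, Cers4 and Cers5. Cers4, an enzyme that prefers long chains, held 67.1, 57.6, 45.7, 51.9 and 65.0 CPM in the Active libraries and 36.01, 42.3, 33.1, 36.5 and 58.1 CPM in the IBA libraries. IBA replicate 5 alone lay within the Active range. This gave a log2 difference of -0.49 (SE 0.16, 95% interval -0.84 to -0.14), and its adjusted p in limma was 0.107. Over 23 alternative settings the adjusted p ran from 0.0434 in DESeq2, which called 9.89% of all genes, to 0.309. In limma without IBA replicate 5 it was 0.0476, and the difference was -0.62. That setting called 245 genes in all, beside 62 in the main test.

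Cers1, the main ceramide synthase of neurons, lay under the filter on low values. It held 1.03, 0.875, 0.825, 1.15 and 2.10 CPM in the Active libraries and 0.294, 0.719, 0.410, 0.244 and 0.647 CPM in the IBA libraries, from 6 to 68 reads. All IBA libraries lay below all Active libraries. A two-sided exact permutation test gave p = 0.00794, the smallest it can give with 5 libraries a state, and 0.0556 when adjusted over the 7 pathway genes under the filter. In limma without the filter the log2 difference was -0.80 (SE 0.22, adjusted p = 0.115 over 25534 genes). Beside Cers1 and Cers3, the genes under the filter were Asah2, Acer1, Spns2, S1pr2 and S1pr4, with exact permutation p-values from 0.0476 to 0.944 (n = 5 each). Cers3 was at 0.698 ± 0.437 and 0.558 ± 0.0986 CPM (exact permutation p = 0.532, n = 5 each). Cers5 averaged 72.7 ± 5.08 CPM over the Active libraries and 74.7 ± 2.88 CPM over those of IBA. Its difference was 0.04 on the log2 scale (95% interval -0.14 to 0.22) and turned to -0.02 once libraries were scaled to equal totals.

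The wider pathway was described with 86 other genes of sphingolipid metabolism, the relatives above included, of which 79 were tested. Of these 79, 1 rose, 0 fell and 78 did not pass in limma, where 0.401% of all genes passed. At an unadjusted p under 0.05 there were 10 higher and 6 lower, 20.3% of the 79 beside 23.9% of all genes tested. The median log2 difference of the 79 was 0.04, beside 0.03 over all genes. On the recovered reads, the quasi-likelihood test of edgeR also called 1 of them, beside 0.369% of all genes tested, and DESeq2 called 5, beside 9.89%.

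The gene that rose was Dbi, which encodes the acyl-CoA binding protein that carries fatty acyl-CoA in the cytosol. Its values were 134.2, 144.7, 169.0, 150.7 and 93.4 CPM in Active replicates 1 to 5 and 247.2, 346.9, 221.8, 255.1 and 269.1 CPM in IBA replicates 1 to 5. The states did not overlap, and Active replicate 5 was the lowest library, as it was for Sptlc1. The log2 difference was 0.96 (SE 0.16, 95% interval 0.61 to 1.31), with an adjusted p of 0.0347 in limma. In the authors' deposited table Dbi ranked 20 by p, with an FDR of 0.0700, above the threshold. The call was lost without Active replicate 1, 2 or 5 (adjusted p = 0.0682, 0.0505 and 0.0639) and without IBA replicate 1, 2 or 4 (adjusted p = 0.0892, 0.0904 and 0.0696). It was also lost without Active replicates 4 and 5 together (adjusted p = 0.0957) and with no filter on low values (adjusted p = 0.0639), and it held in 15 of 23 alternative settings. Dbi is abundant in glia and is also used outside sphingolipid synthesis, and the summed microglia level given above was also higher in IBA. That sum was 249.8 CPM in Active replicate 5, which had the lowest Dbi of the Active libraries. In Active replicate 3, which had the highest, the sum was 227.1 CPM. The part of microglia was not tested.

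**Figure D4:**
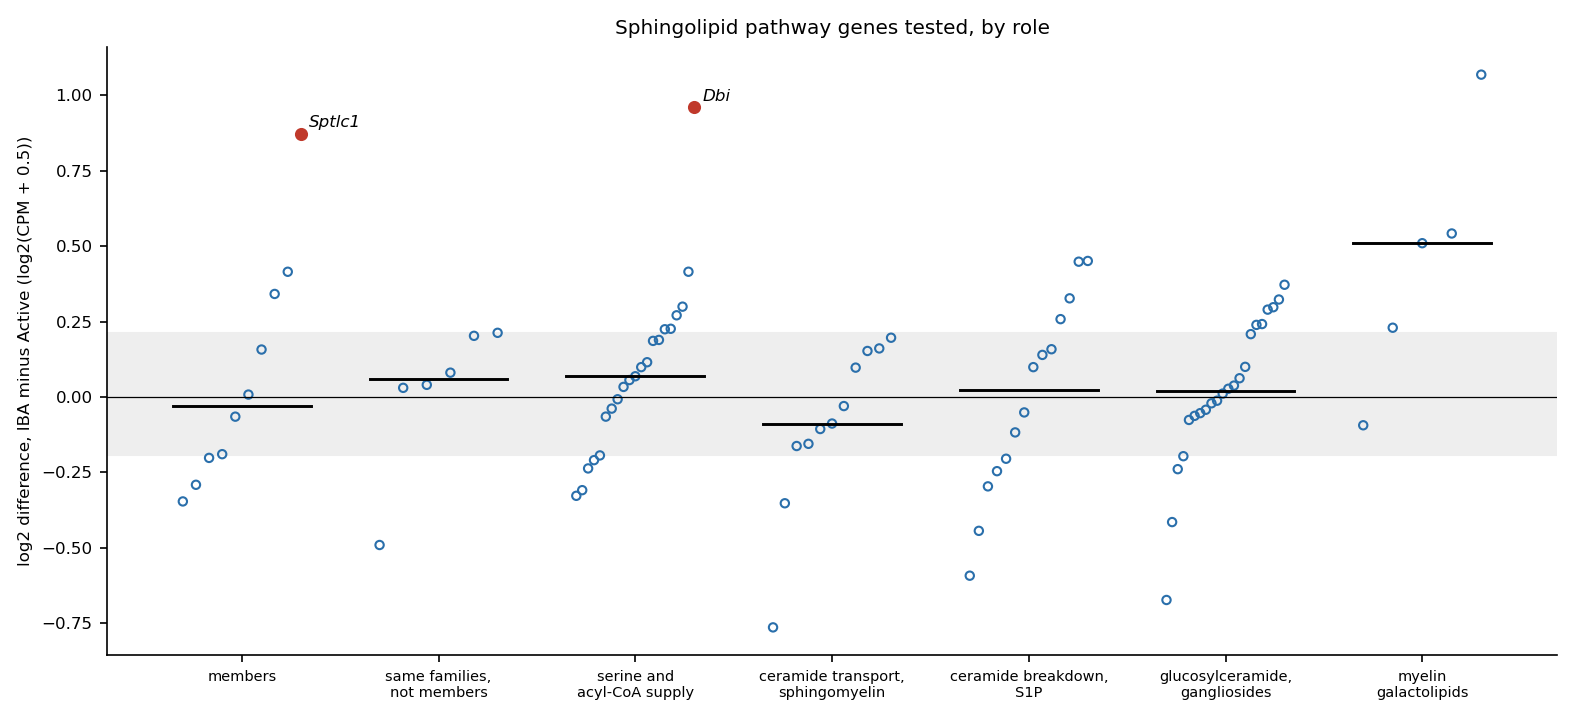
Log2 difference (IBA minus Active) of each tested gene of the pathway, grouped by role; red filled points passed an adjusted p under 0.05 over all genes, open points did not, black bars are list medians and the shaded band spans the quartiles of all genes tested. Sptlc1 at 0.87 and Dbi at 0.96 are the points that passed, and the medians of the lists lie near 0 except for myelin galactolipids at 0.51.

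In the list of serine and acyl-CoA supply, 1 of 21 genes rose, 0 fell and 20 did not pass, with a median of 0.07. At its other end was Shmt1, a serine hydroxymethyltransferase, at 3.96 ± 0.942 CPM in the Active and 3.16 ± 1.21 CPM in the IBA libraries, which gave a log2 difference of -0.33 (95% interval -0.89 to 0.24) that was -0.12 without IBA replicate 5. None of the 11 genes of ceramide transport and sphingomyelin passed, and their median was -0.09. Vapb, an endoplasmic reticulum protein that docks lipid carriers, had the largest positive difference, 0.20 (95% interval -0.07 to 0.46), and 0.13 without IBA replicate 1.

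Smpd3, a neutral sphingomyelinase, had the lowest difference of the sphingomyelin list. It held 33.0, 19.3, 21.9, 108.7 and 32.0 CPM in the Active libraries and 15.8, 21.96, 30.0, 14.5 and 21.8 CPM in the IBA libraries. Active replicate 4 stood far above the rest, and it was also the library with the highest choroid plexus markers, given above. All 10 libraries gave a log2 difference of -0.76 (95% interval -1.61 to 0.08), and the value was -0.35 without that library. The part of choroid plexus tissue was not tested.

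None of the 14 genes of ceramide breakdown and sphingosine 1-phosphate signalling passed, and their median was 0.02. Asah1, the acid ceramidase of lysosomes, held 156.5, 156.9, 148.5, 136.6 and 147.1 CPM in the Active libraries and 238.8, 247.9, 161.7, 195.7 and 187.6 CPM in the IBA libraries. The states did not overlap. A log2 difference of 0.45 (SE 0.12, 95% interval 0.19 to 0.71) went with an adjusted p of 0.0756 in limma. The adjusted p was 0.0136 in DESeq2, and it ran up to 0.275 over the alternatives. Sphk1, which makes sphingosine 1-phosphate, was at 38.8 ± 13.6 and 24.7 ± 5.64 CPM, a log2 difference of -0.59 (95% interval -1.14 to -0.05), with an adjusted p of 0.180 in limma.

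None of the 22 genes of glucosylceramide and gangliosides passed, and their median was 0.02. St3gal2, a sialyltransferase that finishes the complex gangliosides of neurons, held 44.8, 49.1, 42.7, 59.3 and 85.8 CPM in the Active libraries and 27.7, 36.1, 35.4, 33.8 and 37.8 CPM in the IBA libraries. All IBA libraries lay below all Active libraries, and Active replicate 5 was highest. The log2 difference was -0.67 (SE 0.18, 95% interval -1.06 to -0.29), and its adjusted p in limma was 0.0749. The adjusted p ran from 0.00654 in DESeq2 to 0.230 over the alternatives, and without Active replicates 4 and 5 together the difference was -0.42. St8sia3, another sialyltransferase, was at 21.1 ± 3.72 and 27.6 ± 5.30 CPM, a difference of 0.37 (95% interval 0.02 to 0.73), with an adjusted p of 0.193 in limma.

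None of the 5 myelin galactolipid genes passed, although their median was 0.51. Ugt8, which makes the galactosylceramide of myelin, held 7.82, 15.4, 7.78, 6.79 and 2.51 CPM in the Active libraries and 4.41, 10.3, 19.95, 35.2 and 24.7 CPM in the IBA libraries. The lowest value of each state was in the library with that state's lowest oligodendrocyte marker score, Active replicate 5 at -1.28 and IBA replicate 1 at -1.44, and the highest IBA value was in IBA replicate 4, whose score of 1.08 was the highest. The log2 difference was 1.07 (95% interval -0.06 to 2.20) and 0.84 with the oligodendrocyte score as a covariate (adjusted p = 0.0687 in limma, in a range of 0.0687 to 0.636 over the alternatives). It was 0.61 without Active replicates 4 and 5. The fit with the score is a description, and the part of oligodendrocytes in the Ugt8 difference was not tested. Arsa, the lysosomal sulfatase that breaks down sulfatide, was at 187 ± 36.1 and 178 ± 50.3 CPM, a difference of -0.09.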

How the data were processed

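RNA of the subfornical organ was sequenced in 10 libraries, 5 per state, and their titles gave the state and replicate number. The submitters' processing notes name R 4.2.1, edgeR 3.38.4, Subread 2.0.1 with featureCounts, STAR 2.7.7a and Trimmomatic 0.39. They name no build, annotation or strand setting, which are thus not given in the sources used here, and overlapping genes may share reads. In the reference gene list of assembly mIctTri1.hap1, Ormdl1 overlaps Pms1 and Cers2 overlaps Anxa9.

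The deposited table holds, per the file headers, the authors' normalised CPM of each library, a scaled signal whose column sums differ, an F score, a p-value, an FDR, and the log2 of a fold change and of an average CPM. Their fold changes are coded Active minus IBA. In every library 100% of values were whole multiples of 1 read within 0.01 of a read. A value of 3 reads was 0.0882 to 0.132 CPM, for counting error only.

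The main test was limma 3.58.1 (R 4.3.3) with a trend on log2(CPM + 0.5). It covered 15445 genes whose mean reached 1 CPM and was two-sided, with Benjamini-Hochberg adjustment over all of them. Genes under the filter were compared by exact permutation (scipy 1.17.1). edgeR 4.0.16 and DESeq2 1.42.0 on recovered reads were alternatives, beside other pseudocounts (0.1 and 1), filters, scalings, weights, an oligodendrocyte covariate, a replicate block and omission of libraries. The test was run on simulated counts first, but the outcome of that run is not given here and nothing is read from it.

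The members and gene lists were chosen with earlier results of these data known. Named genes are the members, their relatives, other pathway genes past the threshold, and the highest and lowest difference of each pathway list. Of 96 pathway names, 96 matched, 2 of them by an older symbol. Of 72 marker names 68 matched, and Mal, Folr1, Gja1 and S100b were not analysed here. No gene sequence or transcript length was used, so levels are not compared between genes.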

Additional observations from a re-analysis of the deposited data

Results flagged for a closer look

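In 7 of 62 groups of 5 libraries examined, 1 library lay far from the others by Dixon's criterion at the 95% level, which chance meets in about 1 of 20 groups. Among the 10 genes these were Sptlc1 in Active replicate 5, at 83.8 CPM where the other Active libraries held 122.5 to 129.5 CPM, Ormdl3 in IBA replicate 3, at 153.4 CPM where the others held 186.3 to 199.3 CPM, and Kdsr in Active replicate 3, at 31.0 CPM where the others held 36.8 to 38.9 CPM. Among their relatives they were Sptlc3 in IBA replicate 2, at 34.2 CPM, Sptssb in Active replicate 3, at 7.10 CPM, and Cers1 in Active replicate 5, at 2.10 CPM, each the highest of its state. Smpd3 in Active replicate 4 was at 108.7 CPM, where the others held 19.3 to 33.0 CPM.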

How the results depend on the processing

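With 5 libraries a state, calls lay near the threshold. The number of genes called was 62, and it was 6 with no filter on low values, 121 with array weights, 1527 in DESeq2, 231 with the replicate block and 0 without Active replicates 4 and 5 (2191 at an unadjusted p under 0.05 in limma). It ran from 4 to 245 when each library was left out. The share of calls higher in IBA was 54.8%, 35.4% with equal totals and 50.7% with median-of-ratios scaling. Of the 10 genes, 1 was called, and 0 with no filter, 3 in DESeq2 and 0 without Active replicates 4 and 5, with 0 to 1 when each library was left out. Of the other pathway genes, 1 was called, and 0 with no filter, 5 in DESeq2 and 0 without Active replicates 4 and 5, with 0 to 2 when each library was left out. The difference of Arsa, -0.09, ranged from -0.24 to 0.050 when each library was left out, and was above 0 without IBA replicate 3. The cause of these changes was not tested. Of 629 values for single genes and ratios under alternatives, 593 kept their sign and their side of the threshold, 20 changed side and 16 changed sign. Part of this was fixed in advance. Ratios had no adjusted p, so their side could not change. The other filters, limma without a trend and the replicate block leave each log2 difference as it was, so signs could not change there. The sign changes were 9 for Ormdl1, 3 for Degs2, 2 for Rtn4 and 1 each for Cers5 and Arsa. Whether replicate numbers pair the libraries was not settled. Same-numbered libraries had correlations of deviations from -0.17 to 0.20, and 3 of 5 Active libraries correlated best with their own number. With the replicate block Sptlc1 kept its call (adjusted p = 0.0257 in limma). Its difference of 0.87 could not change there, since each replicate number holds 1 library of each state.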
